A study of Homo sapiens with 2 samples.

Results

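The hg19 band 11q13.1, positions 63400001 to 65900000 of chromosome 11, held 294 of the 46309 summits in the deposited lists. A site called in both lists counts in each. All summits of both lists inside the band were taken: 6 of 385 from ZMYND8 knockout cells and 288 of 45924 from parental cells. The band was selected on the number of summits per Mb, so its density is a description and carries no test. The study ran chromatin immunoprecipitation and sequencing (ChIP-seq) with an antibody against ZMYND8 on MDA-MB-231 mammospheres, with 1 library from ZMYND8 knockout spheres and 1 from parental spheres of wild-type genotype. MDA-MB-231 is an established triple-negative breast cancer line, and mammospheres are cells grown in suspension as spheres, here in MammoCult medium. Both groups shared the cell line, the medium and the antibody, and the labels do not say whether the knockout is a clone or a pool. With 1 library a group there is no replicate error and no test between genotypes, and read depth is unknown. Intervals below are 95% intervals for counting error only, exact Poisson for counts and densities and Clopper-Pearson for shares. They treat summits as independent, although many summits lay in clusters, so they may be too narrow.

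ZMYND8 is a chromatin reader whose PHD finger, bromodomain and PWWP domain bind modified histone tails, and it is found at promoters and enhancers of active genes. It works with chromatin partners such as the NuRD deacetylase complex. Band 11q13.1 is a lightly Giemsa-staining, gene-rich part of the long arm of chromosome 11. A summit is the position of highest enrichment within a peak called by MACS2, and its score is the authors' own −log10 of a p or q value, not stated which.

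A packaged sample of transcripts, taken as hg19 although it states no build, placed KCNK4 and KCNK7 in the band. No other gene of the sample lay there. Both belong to the two-pore-domain potassium channel family, and KCNK4 encodes the mechanosensitive channel TRAAK. Their promoters are printed because a parental summit lay at the modelled start of KCNK4 and none lay within 1 kb of that of KCNK7. Each runs from 250 bases before to 50 bases after a RefSeq start on GRCh38.p14, 5′ to 3′ on the strand of the gene, plus for KCNK4 and minus for KCNK7. Capitals mark CG dinucleotides, which read the same on both strands.

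KCNK4 start 1: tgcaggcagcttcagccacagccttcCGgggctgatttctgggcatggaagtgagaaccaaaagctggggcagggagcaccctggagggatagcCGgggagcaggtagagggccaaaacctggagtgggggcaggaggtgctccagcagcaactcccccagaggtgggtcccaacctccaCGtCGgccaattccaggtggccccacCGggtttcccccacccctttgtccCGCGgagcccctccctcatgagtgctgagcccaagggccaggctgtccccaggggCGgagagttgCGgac
KCNK4 start 2: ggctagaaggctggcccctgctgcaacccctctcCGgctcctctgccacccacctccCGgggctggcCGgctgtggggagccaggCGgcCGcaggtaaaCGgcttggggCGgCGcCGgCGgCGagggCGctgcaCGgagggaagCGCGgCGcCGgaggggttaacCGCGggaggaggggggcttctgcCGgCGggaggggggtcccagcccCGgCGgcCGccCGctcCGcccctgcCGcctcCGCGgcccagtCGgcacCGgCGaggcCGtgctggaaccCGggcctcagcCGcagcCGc
KCNK4 start 3: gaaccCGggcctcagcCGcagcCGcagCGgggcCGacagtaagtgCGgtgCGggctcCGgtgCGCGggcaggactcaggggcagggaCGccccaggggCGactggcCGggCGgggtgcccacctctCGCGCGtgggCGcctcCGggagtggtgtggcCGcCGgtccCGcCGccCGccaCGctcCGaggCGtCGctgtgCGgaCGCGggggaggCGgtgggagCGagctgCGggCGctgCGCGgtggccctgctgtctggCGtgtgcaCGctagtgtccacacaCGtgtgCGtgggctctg
KCNK7 start 1: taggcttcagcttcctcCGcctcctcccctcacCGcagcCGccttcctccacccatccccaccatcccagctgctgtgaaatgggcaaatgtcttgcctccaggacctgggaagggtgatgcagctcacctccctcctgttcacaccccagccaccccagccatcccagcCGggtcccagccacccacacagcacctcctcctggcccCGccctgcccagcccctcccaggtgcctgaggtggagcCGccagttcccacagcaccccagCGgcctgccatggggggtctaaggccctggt

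The KCNK4 promoters held 9, 36 and 41 CG dinucleotides in the order printed, and the KCNK7 promoter held 7. The median over 35116 RefSeq promoters was 14, and 96.0% held a CG. As many as 36 were found in 12.7% of promoters and as many as 41 in 6.69%, against 58.4% for 9 and 63.2% for 7. The modelled hg19 start of KCNK4 was not matched to any of its 3 RefSeq starts, so the summit is not assigned to a printed sequence.

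KCNK4 ran from 64059470 to 64067503 of chromosome 11 on the plus strand, in 7 exons. A parental summit with a score of 2.70 lay at 64059413, 57 bp upstream of the start. A further summit lay in exon 2 at 64060457 (score 3.44), and another in exon 7 at 64066994 (score 5.81). The last of these opened a run of 5 summits up to 64073842, with its highest score, 7.09, at 64068292, 789 bp past the end of the gene. KCNK4 therefore had summits at its start, in exon 2 and in exon 7, with no score above 5.81. The summit at its start was a low one, with rank 37322 of 45924 in the parental list. That in exon 2 scored below the list median of 3.79. KCNK7 ran from 65360326 to 65363467 on the minus strand, in 3 exons. No parental summit lay in its body. The nearest were 4092 bp upstream of its start (65367559, score 4.01) and 686 bp past its end (65359640, score 2.93). No knockout summit lay within 1 kb of either gene, and the nearest was 106 kb from the start of KCNK4 and 103 kb from that of KCNK7. Over 284 protein-coding genes of the transcript sample, 50% had a start with a parental summit no more than 1 kb away.

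Summits of both genotypes were dense in 11q13.1. Knockout cells had 2.4 summits per Mb in the band (0.881 to 5.22), against 0.127 per Mb over chromosomes 1 to 22 and X. Parental cells had 115 per Mb (102 to 129), against 15.1 per Mb over the same chromosomes. The band was 18.9 times (6.95 to 41.2) as dense as the knockout list as a whole and 7.62 times (6.76 to 8.55) as dense as the parental list as a whole. With 1.85% of the length of chromosome 11, it held 6 of the 17 knockout summits of that chromosome (35.3%, 14.2 to 61.7) and 288 of its 2762 parental summits (10.4%, 9.31 to 11.6). The parental to knockout ratio was 48 in the band and 119 over the lists, and no difference between these has a replicate check.

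Among 674 bands of at least 2 Mb, 11q13.1 ranked 4 with 115 parental summits per Mb, where the median band had 10 per Mb. Band 17q25.3, ranked just above it, had 118 per Mb, and 11p15.5, ranked just below it, had 110 per Mb. A score of 10 was reached by 9.72% of parental summits in 11q13.1 (28 of 288, 6.56 to 13.7), 6.64% in 17q25.3 and 2.92% in 11p15.5. The value of 17q25.3 lies inside the interval of 11q13.1 and that of 11p15.5 lies below it. Knockout summits numbered 6 in 11q13.1, 6 in 17q25.3 and 2 in 11p15.5. The flanking bands were less dense, with 60 parental summits per Mb in 11q12.3 and 76.8 in 11q13.2, and each held 1 knockout summit. The edges of the region are the limits of the cytogenetic band and were not placed by the summits around them. The outermost knockout summits inside lay at 63439030 (score 4.86) and 65260067 (score 5.94), and the nearest outside at 61740963 (score 2.87) and 66495525 (score 4.87). The outermost parental summits inside lay at 63433755 (score 13.6) and 65838060 (score 5.26), and the nearest outside at 63335913 (score 4.53) and 66026292 (score 5.68).

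Within the band the summits were very uneven. In 25 windows of 100 kb, parental counts ranged from 1 to 35 with a median of 7, whereas 61.3% of 30353 windows over chromosomes 1 to 22 and X held none. Of the 25 windows, 11 held 10 or more parental summits, against 3.36% of all windows. These 11 windows held 227 of the 288 parental summits (78.8%, 73.6 to 83.4). A high share of full windows follows from the density that marked out the band and is given as a description.

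The 5 fullest windows, each with 25 or more, held 152 parental summits (52.8%, 46.8 to 58.7). They started at 65200001 with 35 summits, 65600001 with 33, 64000001 with 30, 65100001 with 29 and 64600001 with 25. The fullest of them ranked 36 among all windows, where the highest count anywhere was 68. The 5 windows did not share a level of score: 9 summits reached 10 in the window from 65600001, 5 in that from 65200001 and 4 in that from 65100001, and none did so in those from 64000001 and 64600001.

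The emptiest part lay between 64100001 and 64500000, where 4 neighbouring windows held 7 parental summits and no knockout summit. The windows from 64200001 and 64400001 held 1 parental summit each, with scores of 3.45 and 2.05. The longest gap between parental summits, 121 kb from 64212120 to 64332755, lay here, and so did the next longest, 114 kb from 64365812 to 64479681. The highest score in this stretch was 7.92.

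**Figure D1:**
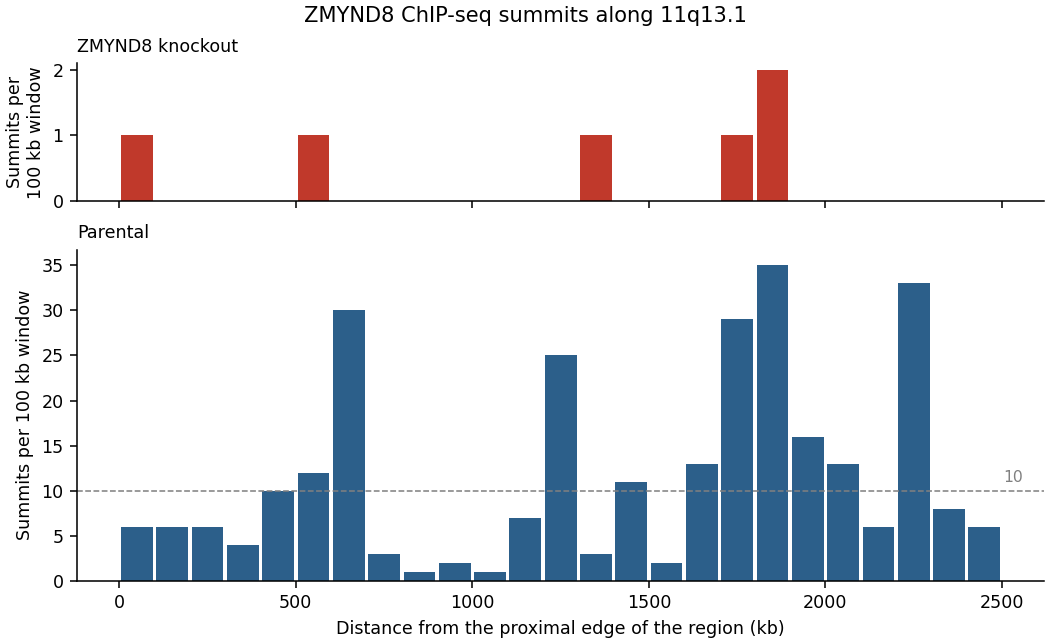
Summits per 100 kb window along 11q13.1, with the distance from the proximal edge of the region in kb on the x axis, for knockout cells (upper panel) and parental cells (lower panel, dashed line at 10 summits). Parental counts peak at 30, 25, 35 and 33 in 4 separate places, and the 6 knockout summits fall in 5 windows.

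Neighbouring parental summits lay closer together than in the list as a whole. The median gap was 1528 bp in the band, over 287 gaps, and 5722 bp over chromosomes 1 to 22 and X. Gaps of at most 5000 bp made up 70.0% in the band (64.4 to 75.3) and 48.4% in the list, and gaps of at most 1000 bp made up 33.8% (28.3 to 39.6) and 24.9%. These gaps follow from the density that marked out the band and are given as a description.

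**Figure D2:**
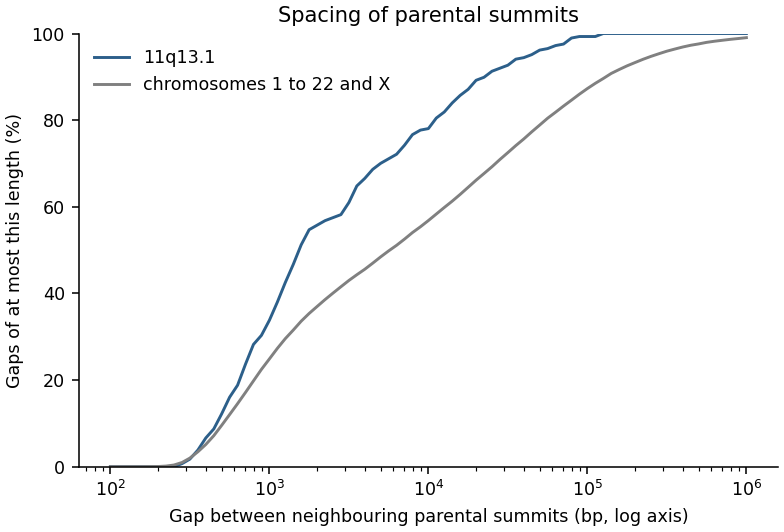
Share of gaps between neighbouring parental summits (y axis, %) that are at most the length on the x axis (bp, log scale), in 11q13.1 and over chromosomes 1 to 22 and X. The curve of the band reaches 70.0% at 5000 bp, where that of the list is at 48.4%.

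Runs, taken as 4 or more parental summits with neighbouring gaps of at most 5000 bp, numbered 23 in the band. They held 192 of its 288 parental summits (66.7%, 60.9 to 72.1), against 35.4% of the parental list, and spanned 234 kb, 9.36% of the band. Like the gaps, this share follows from the density that marked out the band and is a description. Runs of just 4 summits were the commonest, with 12 of the 23. Of the 334 runs of 10 or more in the list the band held 6, and of the 62 runs of 20 or more it held 2.

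The longest run held 29 parental summits between 65656936 and 65687472, a span of 30.5 kb. It ranked 17 by number of summits among 2469 runs of the list. Its median score was 5.68 and 7 of its summits reached 10. Its highest scores were 16.2, both at 65658278 and at 65686366, followed by 14.9 at 65666991. No knockout summit lay in this run, and the nearest was 397 kb away.

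The run with the next highest number held 22 parental summits between 65239183 and 65269633, with a median score of 5.13, and 2 knockout summits. Its scores rose well above that median at 65261831 (21.7), 65244918 (18.6) and 65256024 (15.0), and 5 of its summits reached 10. It closed a chain of 4 runs, none more than 30 kb from the next, which reached from 65147672 to 65269633. This chain of 122 kb, 4.88% of the band, held 3 of the 6 knockout summits and 59 of the 288 parental summits (20.5%, 16.0 to 25.6). Its other runs held 9, 16 and 10 parental summits, with highest scores of 6.70, 13.2 and 6.72.

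Long runs were not always high in score. The run of 18 parental summits between 64005090 and 64036937, over 31.8 kb, had a median score of 4.47 and a highest score of 6.70. The run of 13 between 64622109 and 64638740 had a median of 3.79 and a highest score of 9.75. Neither held a summit that reached 10, nor did the run of 10 from 65208206, and these 3 runs together held 41 summits. By contrast the short run at the proximal edge, 5 parental summits between 63433755 and 63439633, had 4 that reached 10, a median of 10.9 and the highest score of the band, 23.6 at 63438959.

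**Figure D3:**
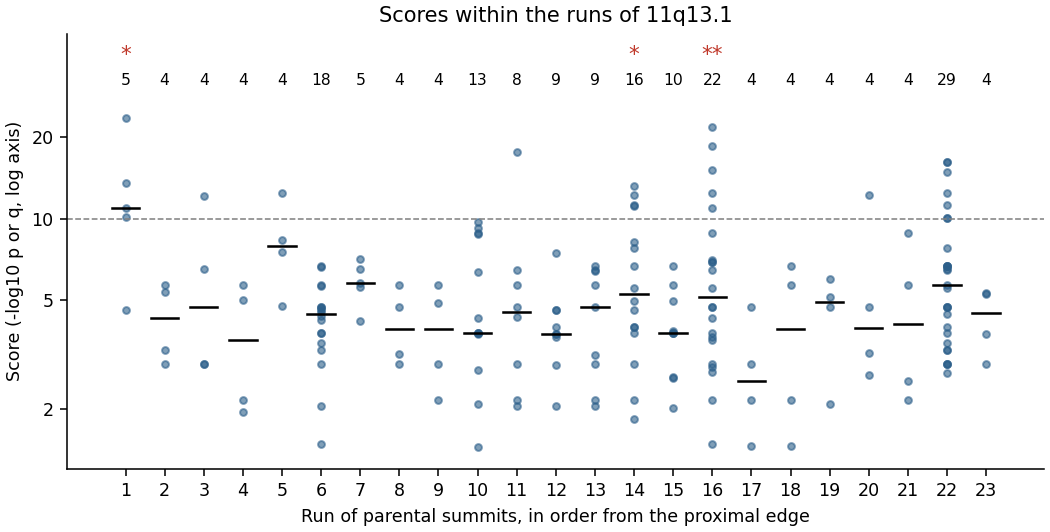
Score of each parental summit (points, −log10 p or q on a log axis) in the 23 runs, ordered from the proximal edge, with the median as a black bar, the number of summits above each run and a dashed line at 10. Red asterisks count knockout summits, 4 in 3 runs (1, 14 and 16), and runs 6 and 10, with 18 and 13 summits, stay below the line.

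The scores of parental summits in the band ran from 1.44 to 23.6 with a median of 4.34, against a median of 3.79 in the parental list. Many scores were tied, and the 10 commonest list scores covered 31.25% of parental summits in the band and 56.5% of the list. The list median was also the commonest score in the band, held by 17 summits, and tied summits share a rank. Of the 288, 28 reached 10 (9.72%, 6.56 to 13.7), against 6.27% of the list, and 2 reached 20 (0.694%, 0.0842 to 2.49), against 0.647% of the list. The density of the band relative to chromosomes 1 to 22 and X was 6.50 times (4.58 to 8.96) for scores under 2.5 and 6.89 times (5.81 to 8.11) for scores of 2.5 to 5. It was 8.94 times (7.07 to 11.1) for scores of 5 to 10 and 11.8 times (7.85 to 17.1) for scores of 10 or more. All of these intervals overlap one another, including those of the lowest and highest classes, and no trend with score is drawn from them.

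In runs, 24 of the 192 parental summits reached 10 (12.5%, 8.18 to 18.0), and outside runs 4 of 96 did (4.17%, 1.15 to 10.3). The list as a whole had 8.21% in runs and 5.21% outside. Of the 28, 16 lay in the chain of 4 runs or in the run of 29. The exceptions outside runs included the summit at 63953026 (score 18.7).

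The 10 highest parental summits of the band had scores of 13.6 or more, and 9 of them lay in runs, as did 66.7% of all its parental summits. The highest, at 63438959, ranked 167 in the parental list. The band held 9 of the highest 1000 parental summits, and 0.627% of the whole parental list. Of the 385 highest, as many as the knockout list holds, it held 3 (0.779%, 0.161 to 2.26), an interval that includes the whole-list share. The 10 also included 64884804 (score 17.5), in a run of 8 in which no other summit passed 6.47. Of the 10, 3 had a knockout summit within 200 bp. In the whole parental list, 6.08% of summits that reached 10, a lower cut, had one.

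**Figure D4:**
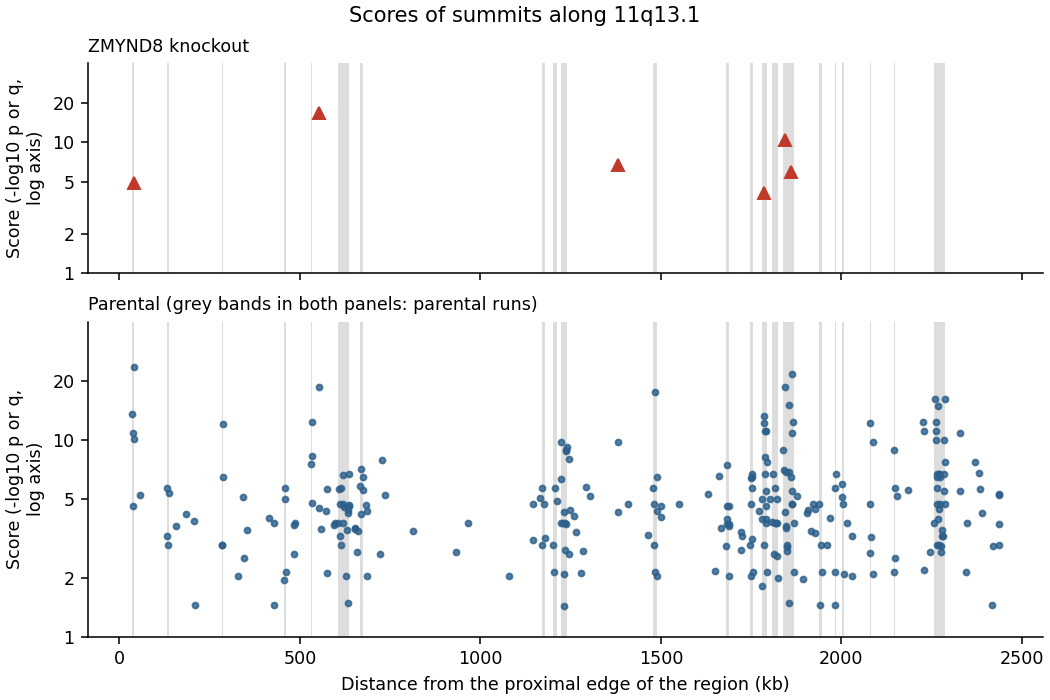
Score of each summit (−log10 p or q, log axis) against the distance from the proximal edge of the region in kb, for knockout cells (upper panel, triangles) and parental cells (lower panel, points), with parental runs in grey. Knockout scores lie between 4.13 and 16.6, and the parental points thin out in the sparse 400 kb stretch, where none passes 7.92.

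All 6 knockout summits had a parental summit within 500 bp, a distance at which the list share was not taken. Of the 6, 5 had one within 200 bp (83.3%, 35.9 to 99.6), against 75.6% of the knockout list. The median distance of these 5 was 30 bp. The authors scored the libraries separately, and scores are set side by side without reading a change in binding. Whether a summit called in knockout cells, or its parental partner, marks ZMYND8 itself was not tested.

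The highest knockout summit, with a score of 16.6, lay at 63953012, and the parental summit 14 bp away had a score of 18.7. This site stood outside the runs, with 2 parental summits within 5 kb. The next, with a knockout score of 10.3 at 65244892, had a parental summit 26 bp away with a score of 18.6. Both rank high in their own lists, 30 and 47 of 385 in the knockout list and 384 and 386 of 45924 in the parental list.

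The knockout summit at 64781681 (score 6.74) was paired with a low parental summit, 66 bp away with a score of 4.29 and rank 19792. At 63439030 the knockout score was 4.86, and the parental summit 71 bp away was the highest of the band, with 23.6. At 65185694 the knockout score was 4.13, the lowest of the 6, and the parental score 30 bp away was 12.3. The order of scores therefore differed between the lists at these sites. The knockout summit at 65260067 (score 5.94) had its nearest parental summit 326 bp away at 65259741 (score 6.46).

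In the other direction, a knockout partner within 200 bp was found for 5 of the 288 parental summits (1.74%, 0.566 to 4.0), against 0.636% of the parental list. In the band 278 (96.5%, 93.7 to 98.3) had none within 1000 bp, and the list share at that distance was not taken. With 385 knockout summits against 45924 parental ones, lacking a partner within 200 bp was usual over the whole list too. Among parental summits that reached 10, a partner within 200 bp was found for 4 of 28 (14.3%, 4.03 to 32.7), against 6.08% of such summits in the list. Below 10 it was 1 of 260 (0.385%, 0.00974 to 2.12), against 0.272% in the list. Each list value lies inside the interval of the band within its class, so no difference from the list was detectable at these numbers.

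The stretch between KCNK4 and KCNK7 allowed summits to be set against genes. From 64067504 to 65360325, a span of 1.29 Mb, there were 4 knockout summits and 150 parental summits. In the gene order of RefSeq, 47 protein-coding, 20 long noncoding RNA and 10 microRNA genes lie between KCNK4 and KCNK7. That is 36.4 protein-coding genes per Mb, against 6.58 over chromosomes 1 to 22 and X, and 3.19 parental summits per protein-coding gene (2.70 to 3.75), against 2.30 over the same chromosomes.

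The same ratio was taken in 182 stretches between neighbouring genes of the transcript sample with at least 10 protein-coding genes between them. The stretch from KCNK4 to KCNK7 ranked 2 by parental summits per Mb and 5 by genes per Mb, but 45 by summits per gene. The adjoining stretches, each partly outside the band, had 2.43 summits per gene from SYT7 to KCNK4 (rank 67) and 3.22 from KCNK7 to CTTN (rank 43). The value of the KCNK4 to KCNK7 stretch was therefore not particular to it. The median stretch had 1.94 summits per gene, and the range was 0.0625 to 6.91. Among the 33 stretches with 20 or more genes per Mb it ranked 5 by summits per gene, where the median was 1.56 and the highest 4.33.

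**Figure D5:**
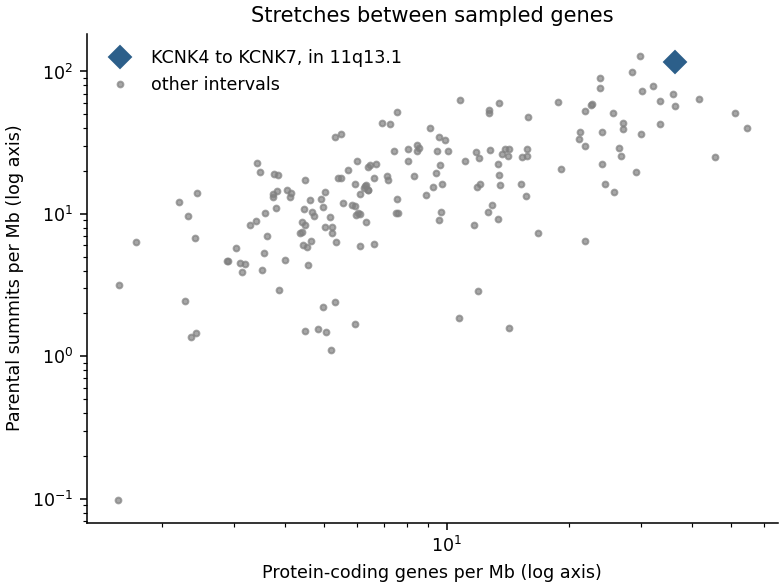
Parental summits per Mb (y axis, log scale) against protein-coding genes per Mb (x axis, log scale) in 182 stretches between neighbouring sampled genes. The stretch from KCNK4 to KCNK7 (diamond) lies near the upper right corner, with 36.4 genes and 116 summits per Mb.

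The genes named here come from lists grouped by function and written with earlier results of these data known. Their hg19 positions were not used, so no summit is assigned to any of them. All listed genes have a place before, between or after KCNK4 and KCNK7 in gene order, so the lists were not free of location. The counts lying between follow from how the lists were written, have no background share and are given as a description. Of 10 genes of chromatin and transcription, 4 lie between KCNK4 and KCNK7. They are MEN1, which encodes menin, a tumour suppressor and partner of MLL histone methyltransferases, SF1, a splicing factor, ESRRA, an orphan nuclear receptor of energy metabolism, and BATF2, a basic leucine zipper factor. The other members of this list lie outside the stretch, before KCNK4 or after KCNK7, and are not named. Of 5 genes listed for sterols and lipids, 2 lie between: TM7SF2, a sterol reductase of cholesterol synthesis, and LTBP3, which is known instead as a binding protein of latent TGF-beta.

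Of 8 signalling genes 5 lie between, the kinases RPS6KA4, MAP4K2 and CDC42BPG, the exchange factor RASGRP2 and EHD1, a regulator of endocytic recycling. All 4 listed noncoding RNA genes lie between. They are NEAT1, the scaffold of paraspeckles, MALAT1, an RNA of nuclear speckles, and the microRNA genes MIR192 and MIR194-2. Of 6 neuronal and transport genes, 3 lie between, the synaptic adhesion gene NRXN2 and the organic anion transporter genes SLC22A11 and SLC22A12, with KCNK4 and KCNK7 themselves as the ends. The nearest protein-coding neighbours of KCNK4 are GPR137 and CATSPERZ, a subunit of the sperm calcium channel, and those of KCNK7 are EHBP1L1 and MAP3K11, a mixed-lineage kinase. The chain of 4 runs lies in the same stretch as NEAT1 and MALAT1, and which of its summits fall in these genes was not determined here.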

How the data were processed

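ChIP-seq summit lists from 1 ZMYND8 knockout and 1 parental library were used, grouped by their labelled genotype. Per the submitters' processing notes the build was hg19 and the tools were MACS2 2.0.10, Picard 1.127, Bowtie2 2.2.3 and FastQC 0.11.2, with no role or setting. How peaks were thresholded, against which control, and how duplicates were treated is not given in the sources used here. The authors' deposited score is a −log10 p or q value, and it depends on depth and control, so scores were compared within a list only. Depth is unknown, and a longer list need not mean more binding.

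Positions are 1-based hg19. Band limits came from circlize 0.4.16 and chromosome lengths from GenomeInfoDb 1.38.1. Transcripts, taken as hg19, came from an example set in pyranges 0.1.4, which states no build. All 284 protein-coding genes matched to RefSeq lay within hg19 lengths, a check that positions from another build could also pass. RefSeq (GRCh38.p14) served for names, gene order and promoter sequence only, and stretches between sampled genes were kept where both builds gave spans within 10%. Python 3.11.15 was used with scipy 1.17.1, numpy 2.4.6, matplotlib 3.10.9 and pandas 2.3.3, and the counting steps were tested on simulated positions.

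The band and the gene lists were chosen with earlier results of these data known. Summits named were the 10 highest parental ones, all knockout ones with their nearest parental summit, and those leading the 5 largest runs. Windows named were the 5 fullest and those with at most 1 summit, genes the sampled ones, their neighbours and list members lying between them. Other summits and runs, the 30 kb chain, the 3-summit sparse stretch, the score classes, the bands and the 20 genes per Mb class were chosen after their values were seen.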

Additional observations from a re-analysis of the deposited data

How the results depend on the processing

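No paired analysis was possible because there is 1 library for each genotype. An alternative held where a share or ratio lay within the 95% interval of the reported value, and where a count lay within 1.5 times of it. For the main results 13 alternatives held, and the other 9 are as follows. The density ratio of the band was 11.8 with scores of at least 10 and 6.17 against the rest of chromosome 11, which had 18.7 parental summits per Mb. Runs numbered 7 with the highest scoring 25% of summits. The share of parental summits past a score was 37.2% at 5 and 0.694% at 20. All 6 knockout summits of the band (100%) had a parental partner within 500 bp and within 1000 bp. Summits per gene between KCNK4 and KCNK7 came to 0.872 with the highest scoring 25% and 2.24 with long noncoding RNA genes counted. All of these follow from the setting itself, which changes the summits, distances, genes or comparison counted, except the density ratio at scores of at least 10, for which the cause was not tested. In the 5 largest runs, merging within 500 bp held in 5 of 5, and limiting to the highest scoring 25% lowered the count in 5 of 5, for example to 15 in the run of 29 and to 3 in the run of 18. Read depth, which is unknown, limits what the lists can show of genotype.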
